A study of Mus musculus with 8 samples.

Results

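The collagen gene family was read on 8 Affymetrix arrays of newborn mouse tissue, as every gene whose platform symbol has the form Col, a number, a and a number. The rule found 42 genes among the 18193 named on the array, on 82 probe sets, and the probe set of highest mean level stood for each gene. They were sorted by textbook role into 7 fibrillar, 10 basement membrane, 8 cartilage and 5 junction collagens, with 12 others that fit none of these. A further 3 chains on the role lists, Col6a6, Col21a1 and Col28a1, had no named probe set here.

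The labels name the posterior palate of BALB/c mice, taken as newborns at P1, for all samples, and no genetic alteration is named. The dams carried an osmotic minipump, a small device implanted under the skin that releases its contents at a steady rate. The pumps held sterile saline in the control group and nicotine at 1.5, 3.0 or 4.5 mg/kg/day in the other 3 groups, so nicotine reached the pups through the dam. Each of the 4 groups had 2 arrays of total RNA, which the labels call biological replicates. The labels give 2 newborn pups for the extraction without saying whether they were pooled or came from 1 litter, so the p-values measure only the spread between these samples. The comparisons asked how collagen transcript levels differed between each dose and saline, and between doses.

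Collagens are proteins in which chains wind into a triple helix, and each chain has its own gene. Fibrillar collagens form the ropes that give skin, tendon and bone their strength. Basement membrane collagens form sheets under epithelia and around vessels and muscle fibres, cartilage collagens make the fine fibrils of cartilage, and junction collagens anchor cells to matrix at sites under strain. In the palate, collagens of mesenchyme, bone, muscle attachments and oral mucosa lie close together, so a piece of tissue carries RNA of all these sources. In such bulk RNA, fewer cells of a type and less RNA per cell cannot be told apart, and this holds for every level given.

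Levels are log2 of the deposited intensity plus 16, after the 8 arrays had been brought to the same distribution. The added constant shrinks differences near background. A chain was tested where its mean level reached 4.94, the 40th percentile of all probe sets. Of the 42 chains, 40 passed, and Col4a6 (4.12 to 4.73 over the 8 arrays) and Col6a5 (4.09 to 4.63) did not. Col10a1 and Col9a2 passed only through nicotine 1.5 replicate 1, since their means over the other arrays were below the limit. Col4a3 barely passed, with a mean of 4.95, and was at 6.46 in nicotine 3.0 replicate 1 and 4.12 to 5.49 in the other arrays. A chain was called changed at an adjusted p under 0.05 in limma, adjusted by Benjamini-Hochberg over all 13592 genes tested. Probes bind with different strength, so no level is compared between chains.

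Several arrays went against the tissue label or stood apart from the rest. Of the palate mesenchyme markers, Tbx22 (4.17 to 4.46) and Pax9 (4.48 to 4.98) were near background in every array, while Osr2 (5.74 to 7.49) and Meox2 (6.40 to 8.80) were above the limit, and of 5 tooth markers none reached the limit in any array. The median level of 10 stomach markers was 8.22 and 8.49 in the saline arrays, where 9 of the 10 were above the limit, and 4.57 to 4.80 in the 6 nicotine arrays, where 3 or 4 were. Liver markers (8) had medians of 9.08 and 11.90 in saline replicates 1 and 2 and 10.57 in nicotine 1.5 replicate 2, against 4.41 to 4.99 elsewhere. Lung markers (6) were at 9.62 in nicotine 1.5 replicate 2, 6.61 to 9.70 in the 3.0 and 4.5 arrays and 4.57 to 4.72 in the others. The actin 3'/5' ratio, which reads RNA integrity, was 1.74 and 1.65 in saline and 0.95 to 1.39 in the nicotine arrays. Intestine markers (7) had medians of 10.04 and 8.51 in saline and 4.57 to 5.25 in nicotine. Brown fat markers (5) had medians of 6.31 and 5.62 in saline and 7.16 to 11.27 in nicotine. The medians of stomach, intestine and brown fat markers and the actin ratio thus separated saline from nicotine in all 8 arrays. Their part in the collagen differences was not tested.

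Across the family, saline replicate 2 and nicotine 1.5 replicate 1 stood at opposite ends of the range. Saline replicate 2 had the lowest level of the 8 arrays in 28 of the 40 tested chains (70%), against 22.4% of all genes tested. Nicotine 1.5 replicate 1 had the highest level in 27 of 40 (67.5%), against 16% of all genes. That count includes Col10a1 and Col9a2, which were tested only because of nicotine 1.5 replicate 1. For the fibrillar collagens the same 2 arrays were lowest and highest in 7 of 7 chains. Under 7 other choices of scaling, added constant, filter or probe set, saline replicate 2 was lowest in 26 to 29 chains and nicotine 1.5 replicate 1 highest in 23 to 28. The mean of the nicotine arrays lay above saline replicate 1 by a median of 0.21 log2 units over the 40 chains and above saline replicate 2 by 0.87, where the medians over all genes were 0.07 and 0.08. By their median, fibroblast markers (7, among them Pdgfra and Lum) had the same lowest and highest arrays. That median was 8.67 in saline replicate 2 and 9.31 in saline replicate 1. In nicotine 1.5 replicate 1 it was 10.06, and in the rest 9.11 to 9.67. Not every marker had this order, since Pdgfra and Pdgfrb were highest in other arrays and Pdgfrb and Thy1 lowest in other arrays. The heat map of all tested chains by array shows saline replicate 2 and nicotine 1.5 replicate 1 as columns of their own.

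**Figure D1:**
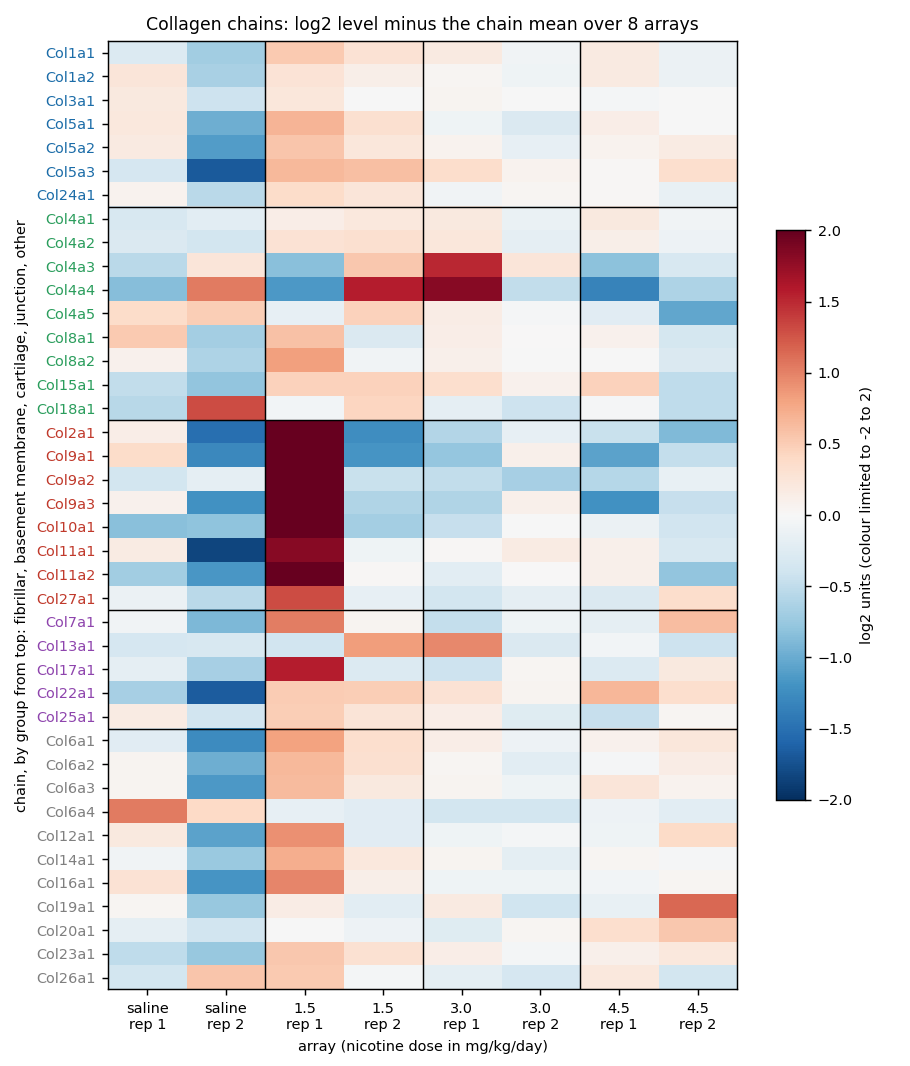
Heat map of the 40 tested collagen chains (rows, by role group) on the 8 arrays (columns, by nicotine dose in mg/kg/day and replicate). Colour is the log2 level minus the mean of that chain over the 8 arrays, limited to between -2 and 2. Saline replicate 2 is the lowest array in 28 chains and nicotine 1.5 replicate 1 the highest in 27, and most cartilage chains of the latter reach the end of the scale.

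On average over the 3 doses, 3 chains rose and 1 fell against saline. The risers were Col22a1 (2.96-fold), a chain of the muscle-tendon junction, Col5a3 (2.54-fold), a minor fibrillar chain, and Col23a1 (1.78-fold), a transmembrane collagen. Col6a4, a chain of the type VI microfibril family, fell 1.95-fold. These 4 calls among 40 tested chains stand beside 10.2% of all genes tested that were called in this comparison (4.75% higher and 5.4% lower), so their number is that of the background. The median difference over the 40 chains was 0.52 log2 units, with 35 chains above 0, where the median of all genes was 0.07. At an unadjusted p under 0.05, 9 chains passed in limma, and 30.8% of all genes did. With saline replicate 2 left out that median was 0.21, and with saline replicate 1 left out it was 0.87. All comparisons with saline below share the same 2 saline arrays.

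Col22a1 encodes the chain of a collagen laid down where muscle fibres meet tendon. Its levels were 6.24 and 5.24 in saline, 7.42 and 7.40 at 1.5 mg/kg/day, 7.20 and 6.96 at 3.0, and 7.57 and 7.25 at 4.5. All 6 nicotine arrays lay above both saline arrays, and the saline arrays differed from each other by more than any nicotine pair did. The difference from saline was 1.56 ± 0.27 log2 units (SE, adjusted p = 0.0196 in limma) for the mean of the doses. At single doses it was 1.68 ± 0.33 at 1.5 (adjusted p = 0.0528 in limma), 1.34 ± 0.33 at 3.0 (0.0747) and 1.68 ± 0.33 at 4.5 (0.034), so of the single doses only the highest passed. That call was kept in 14 of 19 alternatives and lost with the values as deposited and without any 1 of the 3.0 and 4.5 arrays. The other 2 probe sets of Col22a1 moved the same way, by 0.96 and 0.30. Without saline replicate 2 the difference was 1.06 (adjusted p = 0.0442 in limma), and without saline replicate 1 it was 2.07. The call for the mean of the doses was kept in 16 of 19 alternatives and lost without nicotine 3.0 replicate 1, 3.0 replicate 2 or 4.5 replicate 1, with a highest adjusted p of 0.0667.

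Markers of the tissues on both sides of that junction also had higher mean levels on the nicotine arrays. Of 8 skeletal muscle markers, 3 were called higher for the mean of the doses and 8 of 8 differences were positive, with a median of 0.65, where 4.75% of all genes were called higher. Mymk, which drives myoblast fusion, was at 6.35 and 6.18 in saline and 7.71 to 8.39 in the nicotine arrays. Of 5 tendon markers, 2 were called higher, against the same 4.75% of all genes, among them Scx, the transcription factor of tendon progenitors, at 5.41 and 5.80 in saline and 6.30 to 6.65 in nicotine. Tnmd, a membrane protein of tendon cells, was at 8.37 and 6.51 in saline and 9.09 to 10.19 in nicotine. The summed level of the muscle list was 14.77 and 14.36 in saline and 14.92 to 15.22 in nicotine, and that of the tendon list 10.01 and 8.38 against 10.37 to 11.89. The part of muscle and tendon content in the rise of Col22a1 was not tested.

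Col23a1 encodes a collagen that sits in the cell membrane and can be shed from it. Its levels were 5.83 and 5.58 in saline, 6.87 and 6.64 at 1.5 mg/kg/day, 6.47 and 6.29 at 3.0, and 6.43 and 6.54 at 4.5. All 6 nicotine arrays lay above both saline arrays, while the 3.0 and 4.5 groups overlapped. It rose by 0.83 ± 0.15 log2 units for the mean of the doses (adjusted p = 0.0229 in limma). At single doses the differences were 1.05 ± 0.18 at 1.5 (adjusted p = 0.0424 in limma), 0.68 ± 0.18 at 3.0 (0.0936) and 0.78 ± 0.18 at 4.5 (0.0534), so only the lowest dose passed, and that call was kept in 6 of 19 alternatives. It was lost with the values as deposited, with 1 in place of 16, with the mean of all probe sets, with array weights, with the replicate block, without the 2 arrays highest in liver markers and without any 1 array other than saline replicate 1. Its other 2 probe sets above the limit gave -0.10 and 0.39, so the probe sets of this gene disagree in direction. The call for the mean of the doses was kept in 12 of 19 alternatives. It was lost with the mean of all probe sets (the difference ranged from 0.38 to 1.07 over the alternatives), with array weights, without the 2 arrays highest in liver markers, and without saline replicate 2, 3.0 replicate 1, 3.0 replicate 2 or 4.5 replicate 1.

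Col5a3 encodes a minor chain of type V collagen, which helps to set the width of fibrils. Its levels were 7.89 and 6.55 in saline, 8.88 and 8.83 at 1.5 mg/kg/day, 8.58 and 8.30 at 3.0, and 8.25 and 8.57 at 4.5. The 6 nicotine arrays lay above both saline arrays, and the saline arrays were further apart than any nicotine pair. It rose by 1.35 ± 0.33 log2 units for the mean of the doses, and the adjusted p of 0.0498 in limma was just under the threshold. No single dose passed, with differences of 1.64, 1.22 and 1.19 from the lowest to the highest dose and adjusted p-values in limma of 0.0891, 0.133 and 0.115. The call held in 5 of 19 alternatives, and leaving out any array other than saline replicate 1 ended it. The difference was 0.68 without saline replicate 2 and 2.01 without saline replicate 1.

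Col6a4 encodes a chain of the type VI family, which forms beaded microfilaments around cells. It was at 6.59 and 5.94 in saline, 5.38 and 5.32 at 1.5 mg/kg/day, 5.17 and 5.17 at 3.0, and 5.44 and 5.34 at 4.5. It was the only tested chain with all 6 nicotine arrays below both saline arrays, which 12.6% of all genes showed. The difference was -0.96 ± 0.19 log2 units for the mean of the doses (adjusted p = 0.0292 in limma), and -0.91, -1.09 and -0.88 at the rising doses, with adjusted p-values in limma of 0.0941, 0.0564 and 0.0707. The call was kept in 12 of 18 alternatives and was lost with the mean of all probe sets and without saline replicate 1, either 3.0 array or either 4.5 array. Without saline replicate 1 the difference was -0.63, and without saline replicate 2 it was -1.29. Its second probe set was below the limit and gave 0.31. Markers of stomach (8 of 8 tested) and intestine (6 of 6) fell in the same comparison, where 5.4% of all genes were called lower, and the part of such tissue in the fall of Col6a4 was not tested.

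**Figure D2:**
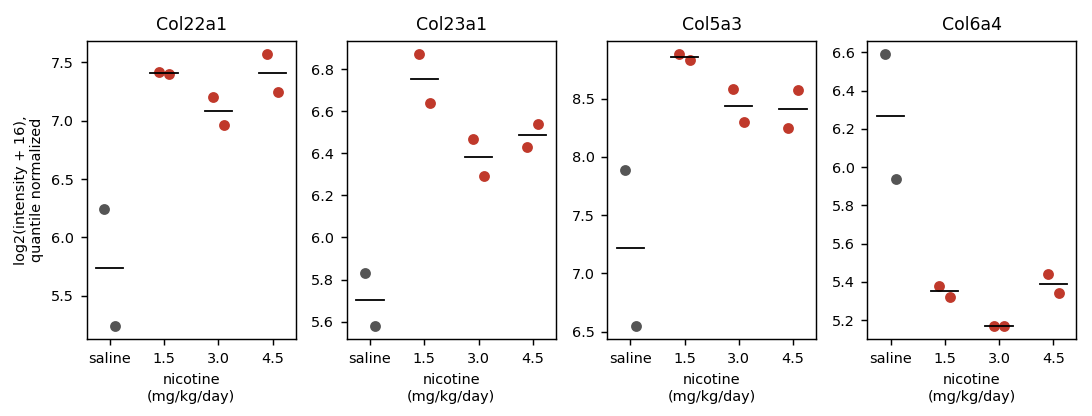
Log2 level of the 4 called chains (panels) on each array against nicotine dose in mg/kg/day, with a short line at the mean of each pair. Col22a1, Col23a1 and Col5a3 have all 6 nicotine arrays above both saline arrays, Col6a4 has all 6 below, and the saline arrays of Col22a1 and Col5a3 lie over 1 log2 unit apart.

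Promoter windows were read for these chains because they were called between the nicotine and the saline arrays. RefSeq entries for GRCm38.p6 held 3 of the 4. Each window runs from 250 bases before the gene's start to 50 bases after it, 5' to 3' on the strand of the gene. Capitals mark every match, on either strand, to the GC box, which reads GGGCGG. They also mark the CCAAT motif, which is named by its letters. The last motif searched was the TATA box with the letters TATAAA, and no matches overlapped in these windows.
Col23a1 (chr11:51289670-51289969, plus strand): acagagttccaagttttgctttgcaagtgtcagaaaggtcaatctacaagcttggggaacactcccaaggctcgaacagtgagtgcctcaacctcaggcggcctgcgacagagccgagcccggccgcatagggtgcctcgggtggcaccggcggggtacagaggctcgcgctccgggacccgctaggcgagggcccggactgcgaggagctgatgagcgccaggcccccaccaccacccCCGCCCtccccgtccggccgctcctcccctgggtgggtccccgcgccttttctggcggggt
Col5a3 (chr9:20815018-20815317, minus strand): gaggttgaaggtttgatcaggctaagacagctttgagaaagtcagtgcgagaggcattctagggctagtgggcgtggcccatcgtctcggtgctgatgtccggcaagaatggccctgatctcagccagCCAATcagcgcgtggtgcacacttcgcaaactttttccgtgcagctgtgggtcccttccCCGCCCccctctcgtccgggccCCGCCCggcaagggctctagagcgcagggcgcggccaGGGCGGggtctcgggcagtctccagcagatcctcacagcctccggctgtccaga
Col6a4 (chr9:106096642-106096941, minus strand): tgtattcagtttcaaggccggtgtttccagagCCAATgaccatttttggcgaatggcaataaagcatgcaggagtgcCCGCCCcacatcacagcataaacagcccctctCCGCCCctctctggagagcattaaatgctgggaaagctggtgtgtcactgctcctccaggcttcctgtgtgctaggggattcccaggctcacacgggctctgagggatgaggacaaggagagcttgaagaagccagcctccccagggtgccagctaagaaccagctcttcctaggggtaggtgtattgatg
The Col23a1 window held 1 GC box and no match to the other motifs. The Col5a3 window held 3 GC boxes and 1 CCAAT box, and the Col6a4 window 2 and 1, and neither had a TATA match. Over the 36 windows found for 33 of the 42 collagen genes, 61.1% held a GC box, 36.1% a CCAAT box and 13.9% a TATA box. Of all 32851 windows in the table, the shares were 35.7%, 37.4% and 13.6%. A match describes the letters and is no evidence of a bound factor.

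The single-dose comparisons called few chains. At 1.5 mg/kg/day 1 of 40 chains was called, Col23a1, higher, where 2.48% of all genes were called (0.728% higher and 1.75% lower). The median difference there was 0.88 log2 units with 37 chains above 0, against 0.04 for all genes, and 12 chains had an unadjusted p under 0.05, a level that 21.1% of all genes reached. At 3.0 none was called against 3.72% of all genes (1.35% higher and 2.38% lower). Of the chains 6 had an unadjusted p under 0.05 in limma there (25% of all genes), and the median difference was 0.31. At 4.5 only Col22a1 was called, where 6.87% of all genes were (2.91% higher and 3.97% lower), and 7 chains had an unadjusted p under 0.05, as did 29.2% of all genes. There the median difference was 0.38 with 29 chains above 0. The slope over dose called 0 collagens at the adjusted threshold in limma (4 at an unadjusted p under 0.05, which 27.2% of all genes reached), against 0.802% of all genes. The F test over the 4 groups called 0 (7 at an unadjusted p under 0.05, which 22.5% of all genes reached), against 1.94%.

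No collagen differed between doses at the adjusted threshold in limma, and neither did any other gene, so the background is 0% in each of the 3 comparisons. At an unadjusted p under 0.05, 0 of 40 chains passed for 3.0 against 1.5, 2 for 4.5 against 3.0 and 2 for 4.5 against 1.5, where 10.8%, 3.93% and 7.09% of all genes did. Of the 40 chains, 37 were lower at 3.0 than at 1.5, with a median of -0.42, and 37 were lower at 4.5 than at 1.5, with a median of -0.43. Nicotine 1.5 replicate 1 enters both of these differences.

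**Figure D3:**
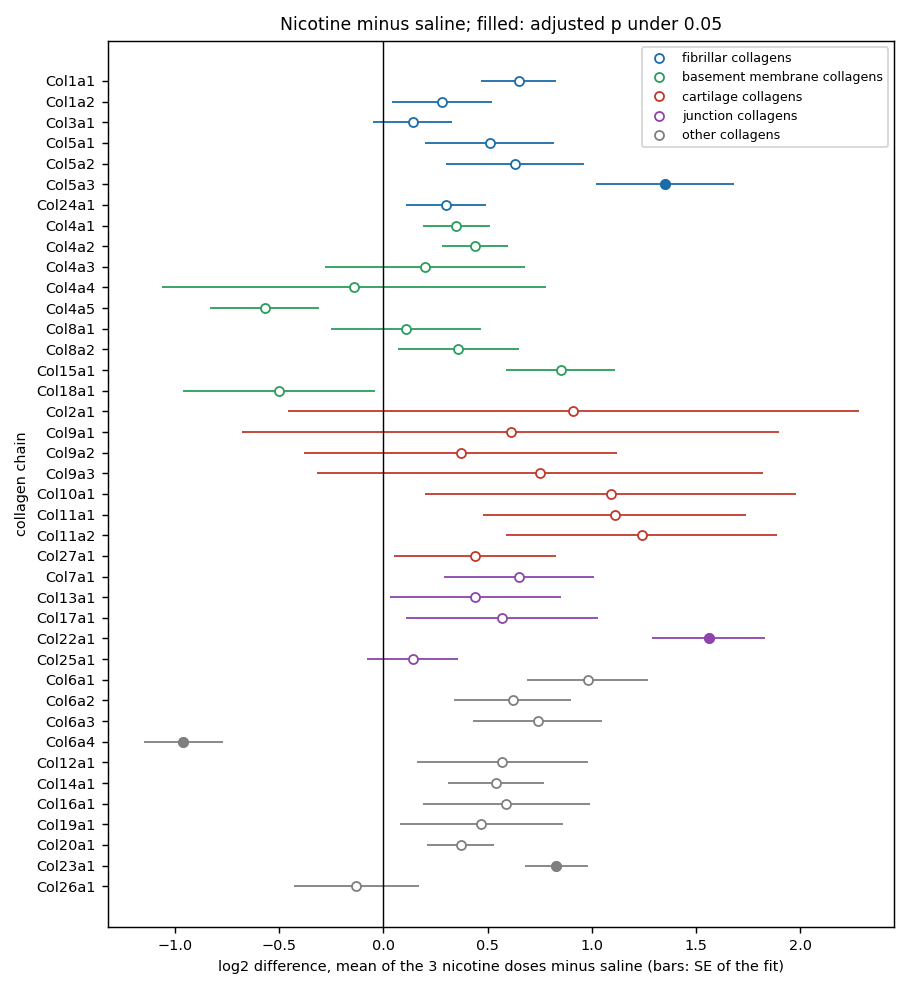
Difference between the mean of the 3 nicotine doses and saline for each of the 40 tested chains, in log2 units with its standard error, grouped by role. Filled points are the 4 called chains (adjusted p under 0.05 in limma), and the vertical line is at 0. Of the 40 points 35 lie above 0, and the 3 widest error bars belong to cartilage chains (Col2a1, Col9a1 and Col9a3).

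The fibrillar collagens make the bulk of connective tissue fibres, and 7 of 7 had positive differences for the mean of the doses, with a median of 0.51 and 1 call, Col5a3. Col1a1, the main chain of type I collagen of bone, tendon and skin, was at 11.60 and 11.18 in saline, 12.40 and 12.17 at 1.5 mg/kg/day, 12.05 and 11.81 at 3.0, and 12.05 and 11.76 at 4.5. All 6 nicotine arrays lay above both saline arrays, but the difference of 0.65 ± 0.18 did not pass (adjusted p = 0.0674 in limma), except with arrays centred on their medians (0.82, adjusted p = 0.0403). The second probe set of Col1a1, also well above the limit, gave -0.46, so the direction depends on the probe set. Col1a2, the partner chain of Col1a1 in type I collagen, was at 12.48 and 11.59 in saline and 12.13 to 12.51 in nicotine, and saline replicate 1 lay inside the nicotine range. Col3a1, of the reticular fibres of soft tissue, was at 12.73 and 12.12 in saline and 12.50 to 12.76 in nicotine, with a difference of 0.14 ± 0.19.

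On the probe sets used, the type V chains Col5a1 and Col5a2, which start fibrils within type I fibres, separated the saline arrays rather than the treatments. Col5a1 was at 10.66 and 9.47 in saline and 10.16 to 11.13 in nicotine, and Col5a2 at 10.99 and 9.69 against 10.65 to 11.37. Col24a1, a minor fibrillar chain, was at 5.97 and 5.36 against 5.74 to 6.26. In all 3, saline replicate 1 lay within the nicotine range and saline replicate 2 below it. For Col5a1 this depends on the probe set. Another one above the limit was at 6.86 and 6.46 in saline and 7.34 to 8.23 in nicotine, a difference of 1.01. A further one, with a difference of 0.80, had saline replicate 1 (9.41) above nicotine 3.0 replicate 2 (9.33). Against saline replicate 1 the median fibrillar difference was -0.02, with 2 of 7 chains above it, and against saline replicate 2 it was 0.86 with 7 of 7. Without saline replicate 1, Col5a1 (1.10, adjusted p = 0.0272 in limma) and Col5a2 (1.28, 0.017) were called higher.

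The cartilage collagens showed the largest single-array pattern of the family. In nicotine 1.5 replicate 1 they stood far above the other 7 arrays, including the other array of the same dose. Col2a1, the main collagen of cartilage, was at 7.24 and 5.60 in saline, 11.80 and 5.86 at 1.5 mg/kg/day, 6.51 and 6.94 at 3.0, and 6.65 and 6.22 at 4.5. That level was 39.4-fold the median of the other 7 arrays and 4.56 log2 units over the next highest, which was a saline array. Col9a1, a chain of the collagen that coats cartilage fibrils, was at 7.33 and 5.68, 11.29 and 5.79, 6.20 and 7.07, and 5.89 and 6.49 in the same order. Its partner chain Col9a3 exceeded the next array by 3.80. Its other partner, Col9a2, was at 7.87 in that array and under the limit of 4.94 in the other 7, where its level is not measured. Col10a1, which marks enlarged cartilage cells at sites of bone formation, was at 8.37 in that array and 4.24 to 5.06 in the others.

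Col11a2, a chain of the collagen at the core of cartilage fibrils, had the smallest F test p of its group. It was at 5.10 and 4.63 in saline, 8.52 and 5.82 at 1.5 mg/kg/day, 5.58 and 5.80 at 3.0, and 5.89 and 5.01 at 4.5. Saline replicate 1 lay above the lowest nicotine array, and the difference of 1.24 ± 0.65 for the mean of the doses did not pass (adjusted p = 0.242 in limma). Col11a1, its partner chain, reached 10.57 in nicotine 1.5 replicate 1 against 6.91 to 8.92 elsewhere, and Col27a1, a fibrillar chain of developing cartilage, 9.57 against 7.72 to 8.62. Of the 40 tested chains 8 exceeded the next array by more than 1 log2 unit in nicotine 1.5 replicate 1, which 1.13% of all genes did, and 7 of these are cartilage collagens. The eighth was Col17a1. The count includes Col10a1 and Col9a2, which were among the tested chains only because of that array, so the filter in part sets it and it is given as a description.

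By their median, cartilage genes that are not collagens were also highest in nicotine 1.5 replicate 1 and lowest in saline replicate 2. The median of 12 such markers was 5.50 and 4.84 in saline, 9.03 and 5.10 at 1.5 mg/kg/day, 5.69 and 5.49 at 3.0, and 5.36 and 5.42 at 4.5. Not every marker had this order. Matn4 was highest in nicotine 3.0 replicate 1 (5.76, against 5.48 in 1.5 replicate 1). Matn1, Cnmd, Ucma and Chad were lowest in nicotine arrays rather than in saline replicate 2. Acan, the main proteoglycan of cartilage, was at 9.59 in nicotine 1.5 replicate 1 and 4.98 to 6.53 elsewhere, and Matn1, a cartilage matrix protein, at 9.01 against 4.28 to 5.33. The summed level of the 12 was 12.72 in that array and 8.57 to 9.27 in the others, and 12 of 12 were above the limit in that array against 5 to 11 in the others. No cartilage collagen was called in any comparison over all 8 arrays. The group's median difference was 2.08 at 1.5, 0.31 at 3.0 and 0.19 at 4.5. Without nicotine 1.5 replicate 1, the differences for the mean of the doses were -0.08 for Col2a1, -0.30 for Col9a1, -0.19 for Col9a2 and 0.00 for Col9a3, and 0.19 to 0.80 for the other 4. The part of cartilage content of the tissue piece in these levels was not tested.

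**Figure D4:**
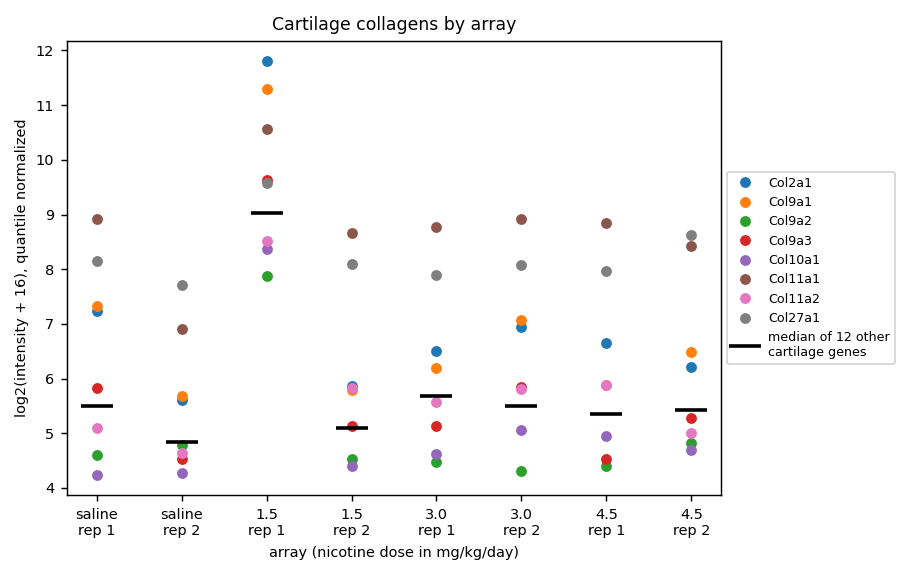
Log2 level of the 8 cartilage collagens (points) on each of the 8 arrays, with a black bar at the median of 12 other cartilage genes. In nicotine 1.5 replicate 1 the bar stands at 9.03, against 4.84 to 5.69 in the other arrays, and the points shift up with it.

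Windows of 3 cartilage chains that shared that single-array peak are shown, with capitals for the same motifs as above. Col9a1 and Col11a1 shared the peak too and had windows, which are not shown. Of the 7 windows of cartilage chains, 4 held a GC box, 2 a CCAAT box and 2 a TATA box.
Col10a1 (chr10:34389731-34390030, plus strand): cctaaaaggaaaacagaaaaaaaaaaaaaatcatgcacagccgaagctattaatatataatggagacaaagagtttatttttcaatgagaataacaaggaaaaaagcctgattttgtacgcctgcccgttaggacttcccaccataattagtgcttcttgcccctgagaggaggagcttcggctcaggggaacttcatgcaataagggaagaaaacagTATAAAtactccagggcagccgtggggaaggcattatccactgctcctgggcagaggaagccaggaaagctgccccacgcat
Col11a2 (chr17:34038888-34039187, plus strand): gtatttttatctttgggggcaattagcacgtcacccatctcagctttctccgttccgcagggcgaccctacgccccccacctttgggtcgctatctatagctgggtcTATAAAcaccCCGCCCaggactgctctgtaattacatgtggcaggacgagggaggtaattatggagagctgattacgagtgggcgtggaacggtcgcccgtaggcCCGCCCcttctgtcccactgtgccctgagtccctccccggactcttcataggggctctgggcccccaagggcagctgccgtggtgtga
Col9a2 (chr4:121039316-121039615, plus strand): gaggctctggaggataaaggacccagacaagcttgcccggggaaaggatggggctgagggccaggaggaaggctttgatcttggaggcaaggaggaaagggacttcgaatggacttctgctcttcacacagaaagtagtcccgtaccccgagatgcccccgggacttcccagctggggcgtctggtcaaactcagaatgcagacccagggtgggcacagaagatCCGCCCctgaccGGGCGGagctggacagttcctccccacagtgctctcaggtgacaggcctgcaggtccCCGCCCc
Col10a1 had 1 TATA match, no GC box and no CCAAT box. Col11a2 had 1 TATA match and 2 GC boxes, and Col9a2 3 GC boxes and no TATA match, so the 3 windows shared no motif of the set. The table used here gave no window for Col2a1, Col9a3 and 7 other members (Col12a1, Col14a1, Col1a1, Col22a1, Col26a1, Col4a3 and Col5a2).

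The basement membrane collagens had the smallest median difference of the groups, 0.20 for the mean of the doses, with 6 of 9 tested chains above 0 and no call. Col4a1 and Col4a2 are the chains of the network that nearly all basement membranes share. Col4a1 was at 11.05 and 11.15 in saline, 11.50 and 11.58 at 1.5 mg/kg/day, 11.56 and 11.23 at 3.0, and 11.57 and 11.30 at 4.5. Col4a2 was at 10.31 and 10.23, 10.90 and 10.92, 10.83 and 10.42, and 10.72 and 10.51 in the same order. In both, all 6 nicotine arrays lay above both saline arrays by a small margin. The differences of 0.35 ± 0.16 and 0.44 ± 0.16 did not pass (adjusted p = 0.18 and 0.12 in limma).

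Col4a1 and Col4a2 are neighbouring genes that start back to back on chromosome 8, and their windows overlap by 78 bases. The windows are shown because the chains had nearly the same array order, and here the capitals mark the shared bases, each run being the reverse complement of the other.
Col4a1 (chr8:11312777-11313076, minus strand): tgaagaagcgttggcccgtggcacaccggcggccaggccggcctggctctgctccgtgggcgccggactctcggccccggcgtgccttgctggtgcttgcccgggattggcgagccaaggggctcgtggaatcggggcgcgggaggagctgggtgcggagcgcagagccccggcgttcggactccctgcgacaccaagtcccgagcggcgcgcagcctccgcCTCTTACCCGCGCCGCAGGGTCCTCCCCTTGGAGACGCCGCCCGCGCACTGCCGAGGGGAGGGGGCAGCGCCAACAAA
Col4a2 (chr8:11312555-11312854, plus strand): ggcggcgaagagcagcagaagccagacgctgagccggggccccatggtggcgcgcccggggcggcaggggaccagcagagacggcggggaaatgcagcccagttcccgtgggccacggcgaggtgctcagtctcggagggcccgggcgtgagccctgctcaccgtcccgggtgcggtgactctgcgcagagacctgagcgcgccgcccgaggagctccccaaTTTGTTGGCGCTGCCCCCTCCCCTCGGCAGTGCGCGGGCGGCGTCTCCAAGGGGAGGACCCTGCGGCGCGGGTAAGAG
The Col4a1 window held 1 GC box and 1 CCAAT box, and the Col4a2 window 3 and 1. Col4a3 and Col4a4, neighbouring genes for the chains of specialised basement membranes such as those of kidney and lung, followed another order. Col4a4 was at 5.26 and 7.15 in saline, 4.95 and 7.67 at 1.5 mg/kg/day, 7.93 and 5.61 at 3.0, and 4.77 and 5.49 at 4.5. Col4a3 was at 4.41 and 5.19, 4.12 and 5.49, 6.46 and 5.19, and 4.13 and 4.63, with a mean barely over the limit. The 3 arrays highest for Col4a4 were saline replicate 2, nicotine 1.5 replicate 2 and nicotine 3.0 replicate 1. Kidney markers were highest in the first of these (8.38 against 4.50 to 5.29 in the other 7 arrays), and lung markers in the other two (9.62 and 9.70). For Col4a4 the 2 arrays of saline, of 1.5 and of 3.0 lay further apart than any of the group means, and the part of lung or kidney tissue in these levels was not tested.

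**Figure D5:**
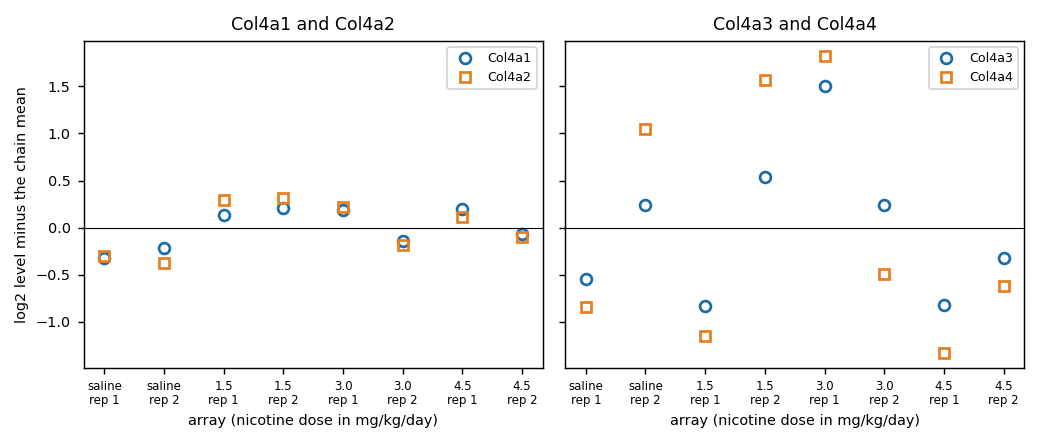
Log2 level minus the mean of the chain over the 8 arrays, for Col4a1 with Col4a2 (left) and Col4a3 with Col4a4 (right), by array. The left pair stays within 0.4 log2 units of its mean with both saline arrays lowest, and the right pair ranges over more than 2 units without separating saline from nicotine.

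Among the other basement membrane chains, Col15a1, a collagen of muscle and vessel basement membranes, had the smallest F test p. It was at 7.52 and 7.21 in saline, 8.46 and 8.46 at 1.5 mg/kg/day, 8.34 and 8.09 at 3.0, and 8.47 and 7.49 at 4.5. Nicotine 4.5 replicate 2 fell between the saline arrays, and the difference of 0.85 ± 0.26 did not pass (adjusted p = 0.0857 in limma) unless that array was left out (1.01, adjusted p = 0.036). Col18a1, the source of endostatin, was at 8.42 and 10.29 in saline and 8.48 to 9.41 in nicotine. Saline replicate 2, which was lowest for most chains, was the highest array for Col18a1, and it was also the array with the highest liver and kidney markers. Without saline replicate 1, Col18a1 was called lower (-1.43, adjusted p = 0.0286 in limma), and without saline replicate 2 its difference was 0.44. Col4a5, a partner of Col4a3 and Col4a4 in those specialised membranes, was at 8.17 and 8.29 in saline and 6.77 to 8.26 in nicotine, with probe sets that disagree in direction. The network-forming Col8a1 and Col8a2 ranged from 6.72 to 7.99 and 6.43 to 7.87.

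The junction collagens hold epithelium, muscle and nerve endings in place, and 5 of 5 had positive differences, with a median of 0.57 and Col22a1 as the only call. Col7a1, which forms the anchoring fibrils under stratified epithelium, was at 7.12 and 6.29 in saline, 8.21 and 7.25 at 1.5 mg/kg/day, 6.72 and 7.11 at 3.0, and 7.01 and 7.81 at 4.5. The groups overlapped, and the difference of 0.65 ± 0.36 did not pass (adjusted p = 0.27 in limma). Col17a1, a transmembrane collagen of the hemidesmosomes of basal keratinocytes, reached 7.26 in nicotine 1.5 replicate 1 and 5.03 to 5.90 elsewhere. The median of 7 keratinocyte markers was 10.71 in that array and 6.14 to 7.85 in the others. Of these Krt14, the keratin of basal cells, was at 10.29 against 6.14 to 7.70. Trp63 did not peak there, at 7.09 against 7.13 in saline replicate 1. The summed level of those markers was 13.92 there and 9.57 to 10.92 elsewhere, and the part of epithelial content in Col17a1 was not tested. Col13a1, a membrane collagen of the nerve-muscle junction, was at 5.72 and 5.73 in saline, 6.89 in nicotine 1.5 replicate 2 and 7.02 in 3.0 replicate 1. It was at 5.64 to 5.77 in 3 of the other nicotine arrays, with 4.5 replicate 1 between these levels. Col25a1, a membrane collagen needed for motor nerves to enter muscle, ranged from 5.72 to 6.67 with a difference of 0.14 ± 0.22.

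Of the 11 other tested chains, 9 had positive differences, with a median of 0.57 and the calls of Col23a1 and Col6a4. Col6a1, Col6a2 and Col6a3 together form type VI collagen, the microfilament network around muscle fibres and fibroblasts. Col6a1 was at 10.29 and 9.26 in saline and 10.41 to 11.31 in nicotine. All 6 nicotine arrays lay above both saline arrays, and the difference of 0.98 ± 0.29 did not pass (adjusted p = 0.072 in limma) except with arrays centred on their medians (1.03, adjusted p = 0.0454) or without saline replicate 1 (1.50, 0.0159). Col6a2 was at 11.10 and 10.07 against 10.83 to 11.70, and Col6a3 at 10.83 and 9.63 against 10.69 to 11.41, so for both of them saline replicate 1 lay within the nicotine range. Col6a1, Col6a2 and Col6a3 had differences of 0.98, 0.62 and 0.74, opposite in sign to the -0.96 of Col6a4.

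Col20a1, a chain of the group that decorates fibril surfaces, had the smallest F test p among the uncalled chains of this set. It was at 5.34 and 5.13 in saline, 5.51 and 5.41 at 1.5 mg/kg/day, 5.27 and 5.55 at 3.0, and 5.85 and 6.05 at 4.5. On the probe set used, the highest dose stood above all other arrays, but its difference from saline of 0.71 ± 0.19 did not pass (adjusted p = 0.0694 in limma). A second probe set above the limit did not show this separation. There 4.5 replicate 1 (5.37) lay below the 1.5 and 3.0 arrays (5.41 to 5.58) and 4.5 replicate 2 (5.67) above them. Col12a1 and Col14a1, which link neighbouring fibrils, were at 9.25 and 7.99 and at 9.89 and 9.21 in saline, against 8.83 to 9.97 and 9.77 to 10.68 in nicotine. Col16a1 and Col19a1 ranged from 7.10 to 9.25 and 5.14 to 7.04, and Col26a1 from 6.64 to 7.57 with a difference of -0.13 ± 0.30. Over the family, 8 of 40 chains had all 6 nicotine arrays above both saline arrays (Col1a1, Col22a1, Col23a1, Col4a1, Col4a2, Col5a3, Col6a1 and Col10a1). That is 20% of them, where 16.8% of all genes tested showed the same. The count includes Col10a1, which was tested only because of nicotine 1.5 replicate 1 and was at 4.24 to 5.06, near background, in the other arrays.

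Genes that make, assemble, bind and break down collagen were read beside the chains, from lists of 82 genes of which 76 had a named probe set and 70 were tested. For the mean of the doses 9 of the 70 were called higher and 1 lower, where 10.2% of all genes were called. In the list of modification and folding, 3 of 19 were called. Plod1, which hydroxylates lysines of the new chain, was at 6.83 and 7.05 in saline and 7.72 to 8.12 in nicotine. It rose by 1.01 ± 0.13 (adjusted p = 0.00904 in limma), passed at each dose and kept its call in 19 of 19 alternatives. P4hb, a subunit of the enzyme that hydroxylates prolines and a general disulphide isomerase, fell from 11.53 and 11.28 in saline to between 10.15 and 10.88 in nicotine, by 1.04 on the log2 scale (adjusted p = 0.0211). Tmem38b, an ion channel of the endoplasmic reticulum needed for normal collagen secretion in bone, rose by 0.88 ± 0.15. Serpinh1, the collagen chaperone of the endoplasmic reticulum, was at 10.09 and 10.19 in saline and 9.83 to 10.99 in nicotine, and its difference of 0.26 did not pass (it is named here outside the rule, for its role).

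None of 9 genes of procollagen export and processing was called in limma, where 10.2% of all genes were, and 5 of them had an unadjusted p under 0.05, which 30.8% of all genes reached. In the list of crosslinking and fibril assembly 1 of 14 was called. Tnxb, a tenascin of connective tissue, was at 7.82 and 7.38 in saline and 8.66 to 9.43 in nicotine. It rose by 1.44 ± 0.20 (adjusted p = 0.0111 in limma) and kept its call in 19 of 19 alternatives. Of 6 collagen receptors, Itga10, an integrin chain of cartilage cells, rose by 1.21 ± 0.30, with a call kept in 7 of 19. Of 10 transcription factors of collagen genes, Scx rose by 0.91 ± 0.17 (adjusted p = 0.0255), while Sox9, which drives the cartilage collagens, was at 7.70 and 7.06 in saline and 5.84 to 8.25 in nicotine (also named for its role).

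The list of collagen degradation had 4 calls among 12 tested genes, each higher, where 4.75% of all genes were called higher. Mmp13, the main collagenase of rodents, was at 7.01 and 5.21 in saline and 7.79 to 8.76 in nicotine and rose by 2.27 ± 0.44 (adjusted p = 0.0281 in limma). Ctsk, the collagen-cleaving protease of osteoclasts, was at 7.28 and 6.21 against 7.92 to 9.21, and rose by 1.78 ± 0.40. Mmp9, a gelatinase also made by osteoclasts, rose by 1.69 ± 0.31 from 6.66 and 6.09 to between 7.41 and 8.71. Mmp2, a gelatinase of mesenchyme, rose by 0.91 ± 0.21 from 8.86 and 8.86 to between 9.25 and 10.50. In these 4 genes all 6 nicotine arrays lay above both saline arrays, as they did in 16.8% of all genes tested. The 4 were named for their calls in this same comparison, so this is given as a description. Mmp13 and Mmp9 kept their calls in 15 and 13 of 19 alternatives, Ctsk in 10 and Mmp2 in 9. Leaving out nicotine 3.0 replicate 1 or 3.0 replicate 2 ended the calls of these 4 genes and of P4hb, Tmem38b, Itga10 and Scx, but not those of Plod1 and Tnxb. Without saline replicate 2 the difference of Mmp13 was 1.37, and without saline replicate 1 it was 3.17. The median of 6 bone markers was 5.78 and 5.49 in saline and 6.21 to 6.91 in nicotine. Their summed level was 9.59 and 8.65 against 9.33 to 10.55. Among them Sp7 was at 6.67 and 7.22 in saline and 6.63 to 7.33 in nicotine, and Alpl and Ibsp also overlapped. The part of bone tissue in the rises of the 4 degradation genes was not tested.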

How the data were processed

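RNA of 8 samples was read on Affymetrix arrays. The authors deposited 1 linear intensity for each of 45101 probe sets per array. Their summary and scaling method was not given in the sources used here. Array medians of intensity ran from 20.7 to 25.4, and the number of arrays limits the precision. The platform annotation of 2016 gave 1 gene for 34945 probe sets, several for 932 and none for 9160, and 64 were controls. By Entrez ID, 34741 matched the reference gene table.

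Values were taken as log2(intensity + 16), quantile normalized and fitted as group means with limma 3.58.1 (R 4.3.3) in 9 two-sided comparisons. The fit had 4 residual degrees of freedom and 6.85 after moderation. Errors are standard errors of the fit. The fit was tested on simulated data.

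The members and gene lists were chosen with earlier results of these data known. Chains described with all 8 levels are those called in a comparison and those with the smallest F test p in each group, with further chains added for their array pattern after the values were seen. Of each pathway list up to 4 genes with the smallest p could be named. Scx, Mkx, Fmod and Kera are tendon markers and Lum and Dcn fibroblast markers as well as pathway genes. Of the 27 chains with several probe sets, 21 had several above the limit, and these differed in direction in 4 (Col1a1, Col23a1, Col4a4 and Col4a5). Promoter windows are RefSeq sequences of GRCm38.p6.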

Additional observations from a re-analysis of the deposited data

How the results depend on the processing

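Collagens were counted as changed under 11 other settings and with each array left out. For nicotine 1.5 against saline the count of 1 became 0 with the values as deposited, with 1 in place of 16, with the mean of all probe sets, with array weights and with the replicate block, and 2 with 64 in place of 16 or the filter at the 60th percentile. For 3.0 the count of 0 became 1 with median centring or with 1 in place of 16, and 2 with array weights. For 4.5 the count of 1 became 0 with the values as deposited. For the mean of the doses the count of 4 became 1 with the mean of all probe sets and 2 with array weights. Other settings moved it less. Col5a3 was not called with the values as deposited, with 1 in place of 16, without the filter or with the replicate block. Col6a4 was not among the calls with the filter at the 60th percentile. With median centring, Col1a1 and Col6a1 were called as well. The count stayed at 4 with 64 in place of 16.

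Without saline replicate 2 and nicotine 1.5 replicate 2, the arrays highest in liver markers, nicotine 1.5 replicate 1 stands alone for its dose and is assumed to vary like the other groups. The counts were then 8 for 1.5, 1 for 3.0 and 2 for 4.5 against saline, 7 for 3.0 against 1.5, 7 for 4.5 against 1.5 and 8 in the F test. Apart from Col6a4, the larger of these counts restate the level of nicotine 1.5 replicate 1. They include Col10a1 and Col9a2, which were tested only because of that array. Col6a4 enters for 1.5 against saline and in the F test. It was at 5.38 in nicotine 1.5 replicate 1, 5.17 to 5.44 in the other nicotine arrays and 6.59 in saline replicate 1. With 1 array left out, the counts ranged from 0 to 9 for 1.5, 0 to 5 for 3.0, 0 to 7 for 4.5, 0 to 9 for the mean of the doses, 0 to 2 for 3.0 against 1.5 and for 4.5 against 1.5, and 0 to 6 in the F test. The count of all genes for the mean of the doses, 1380, ranged from 349 without nicotine 3.0 replicate 1 to 1542 without saline replicate 1. The cause was not tested.

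Directions for the mean of the doses turned in uncalled chains only. Without the 2 liver-high arrays the differences were -0.03 for Col5a1, 0.36 for Col18a1, 0.42 for Col26a1, -0.13 for Col3a1, -0.01 for Col16a1, -0.09 for Col25a1, 0.36 for Col4a4, -0.14 for Col1a2 and -0.35 for Col8a1, and with the mean of all probe sets 0.11 for Col4a4. With 1 array left out, the range was -0.09 to 1.10 for Col5a1, -1.43 to 0.44 for Col18a1, -0.02 to 1.28 for Col5a2, -0.59 to 0.33 for Col26a1, -0.17 to 0.44 for Col3a1 and -0.15 to 1.33 for Col16a1. It was -0.30 to 1.53 for Col9a1, -0.06 to 1.20 for Col12a1, -0.13 to 0.41 for Col25a1, -0.19 to 0.59 for Col4a3, -1.08 to 0.81 for Col4a4 and -0.08 to 1.90 for Col2a1. It was -0.19 to 0.92 for Col9a2, -0.16 to 0.72 for Col1a2, -0.01 to 0.61 for Col24a1, -0.49 to 0.71 for Col8a1 and 0.00 to 1.50 for Col9a3.

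The correlations of replicate 1 deviations between groups ran from -0.22 to 0.33, the highest for saline with nicotine 1.5. They showed no pairing by replicate number common to all groups. Since single arrays differ in tissue markers, these correlations cannot exclude a shared litter or batch. The replicate block left 3 collagens called for the mean of the doses and 849 of all genes.

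Pairs of arrays, and arrays that differ in stomach, intestine, liver, lung, brown fat, cartilage and keratinocyte markers, limit what these data can show about collagens. Levels near background, such as those of Col10a1 and Col9a2 outside nicotine 1.5 replicate 1, are not measured with precision.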
